A study of Mus musculus with 8 samples.

Results

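The integrated stress response genes described here are 10 mouse genes of the pathway listed by symbol: *Ddit3*, *Atf4*, *Atf3*, *Atf5*, *Trib3*, *Chac1*, *Asns*, *Ppp1r15a*, *Sesn2*, and *Ddit4*. They are 10 of the 30406 gene IDs listed for both replicates, and the list was drawn up with earlier results of these data known, so that counts over it are descriptions. Their unique molecular identifiers (UMIs, counts of single captured transcripts) were summed per library over the β-cells, α-cells, δ-cells, macrophages, and endothelial cells of isolated islets. The single-cell RNA-sequencing libraries came from male mice, C57BL/6 by the labels and C57BL6/J by the methods, of 12 to 16 weeks of age. Islets were left untreated or were cultured for 18 h with 10 U/mL human IL-1β and 150 U/mL mouse IFN-γ, with the same cytokines and 2 mM of the nitric oxide synthase inhibitor NMMA (N-monomethyl-L-arginine), or with NMMA alone. Each condition has 2 libraries, and a replicate is a pool of islets from 10 mice. The islets were ex vivo, in medium with 5.5 mM glucose throughout.

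The integrated stress response is started by kinases that phosphorylate the α-subunit of the initiation factor eIF2. Most translation then slows, while the mRNA of the transcription factor ATF4 is translated more, and ATF4 raises genes for amino acid supply, redox balance, and, when stress persists, cell death. In β-cells the arm that starts at the endoplasmic reticulum kinase PERK is well known, because these cells make and fold large amounts of proinsulin.

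The class of each cell was taken from clusters and marker genes. There were 6333 β-cells, 647 α-cells, 301 δ-cells, 346 macrophages, and 282 endothelial cells among 10876 barcodes kept of 17426. All 9 β-cell markers had a UMI in every β-cell sum, and all markers of α-cells (7), δ-cells (5), macrophages (12), and endothelial cells (8) had one in every sum of their own class. Every β-cell sum also held all 7 α-cell markers. The 4 markers of pancreatic polypeptide (PP) cells were in every β-, α-, and δ-cell sum. Detection alone therefore does not tell the endocrine classes apart. A library held 26549922 to 50731370 UMIs. Libraries shared at most 2 kept barcodes per pair and 14 in all. Cytokine replicate 1 held only 9 δ-cells and was left out of the δ-cell sums, so cytokine-treated δ-cells are 1 library of 12 cells. *Nos2*, which encodes the inducible nitric oxide synthase, checked the labels for cytokines and for NMMA added to them. Levels are in CPM, a UMI count scaled by the total of its library and class, adjusted by TMM, edgeR's trimmed mean of M-values. In β-cells *Nos2* was at 0.0278 and 0 CPM without treatment and 193 and 163 with cytokines. It was at 461 and 464 with cytokines and NMMA, and 0.0513 and 0 with NMMA alone. It does not tell untreated libraries from those with NMMA alone.

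All 10 members have a promoter window in RefSeq (mouse GRCm38.p6, 250 bases before to 50 bases after a transcript start), and *Atf5* has a pair of them. The windows were searched on both strands for the C/EBP-ATF element, the kind of site ATF4 can bind, written as TGATGNAA (TTNCATCA on the other strand), and for the cAMP response element TGACGTCA, which ATF proteins also bind. The first motif was in the windows of 4 of the 10 members and in 3.97% of all 32851 promoter windows (1304). The second was in the window of 1 member, *Ppp1r15a*, and in 1.79% of all windows (588). The stretches around these matches are shown because the members differ in which motif they hold, and the capitals mark the motif.
*Atf3*, chr1:191183410-191183469, minus strand, first motif base at −110 from the start: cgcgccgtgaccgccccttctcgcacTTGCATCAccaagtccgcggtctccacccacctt
*Chac1*, chr2:119351023-119351082, plus strand, −193: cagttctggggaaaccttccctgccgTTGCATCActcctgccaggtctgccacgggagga
*Trib3*, chr2:152344031-152344054, minus strand, 15: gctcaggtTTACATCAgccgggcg
*Asns*, chr6:7693210-7693269, minus strand, −23: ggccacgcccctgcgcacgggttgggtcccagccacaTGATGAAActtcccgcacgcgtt
*Ppp1r15a*, chr7:45526269-45526328, minus strand, −12: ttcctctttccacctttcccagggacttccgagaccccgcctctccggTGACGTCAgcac
A match is a description of the letters and not a measured binding site, and no binding was measured here. The remaining members, *Ddit3* (chr10:127290774-127296288), *Atf4* (chr15:80255184-80257541), *Atf5* (chr7:44812256-44816658), *Sesn2* (chr4:132492032-132510501), and *Ddit4* (chr10:59949669-59951834), held neither motif in these windows. Exons of *Ddit3* overlap *Mars* on the opposite strand, those of *Atf5* overlap *Nup62* and *Il4i1*, and those of *Ppp1r15a* overlap *Tulp2*. The strand rule of the counting is not given in the sources used here, so reads of these pairs may not be fully separated.

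In β-cells, cytokines raised 7 of the 10 members, led by *Atf3*, *Ddit3*, *Trib3*, and *Ppp1r15a*. *Ddit3* and *Ppp1r15a* were the members that differed between cytokines alone and cytokines with NMMA. *Chac1* and *Sesn2*, by contrast, were at most 1.25-fold higher with cytokines and did not pass the test. All 10 members passed the filter on low counts in β-cells, and 23.8% of all 12767 genes tested rose with cytokines, against 7 of these 10. The median difference of the members was 1.20 on the log2 scale, against 0.00 for all genes. Of all genes, 3036 rose and 2859 fell, and with scaling to total UMIs in place of TMM, 1979 rose and 3949 fell, since that scaling moved the median of all genes by −0.22.

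**Figure D1:**
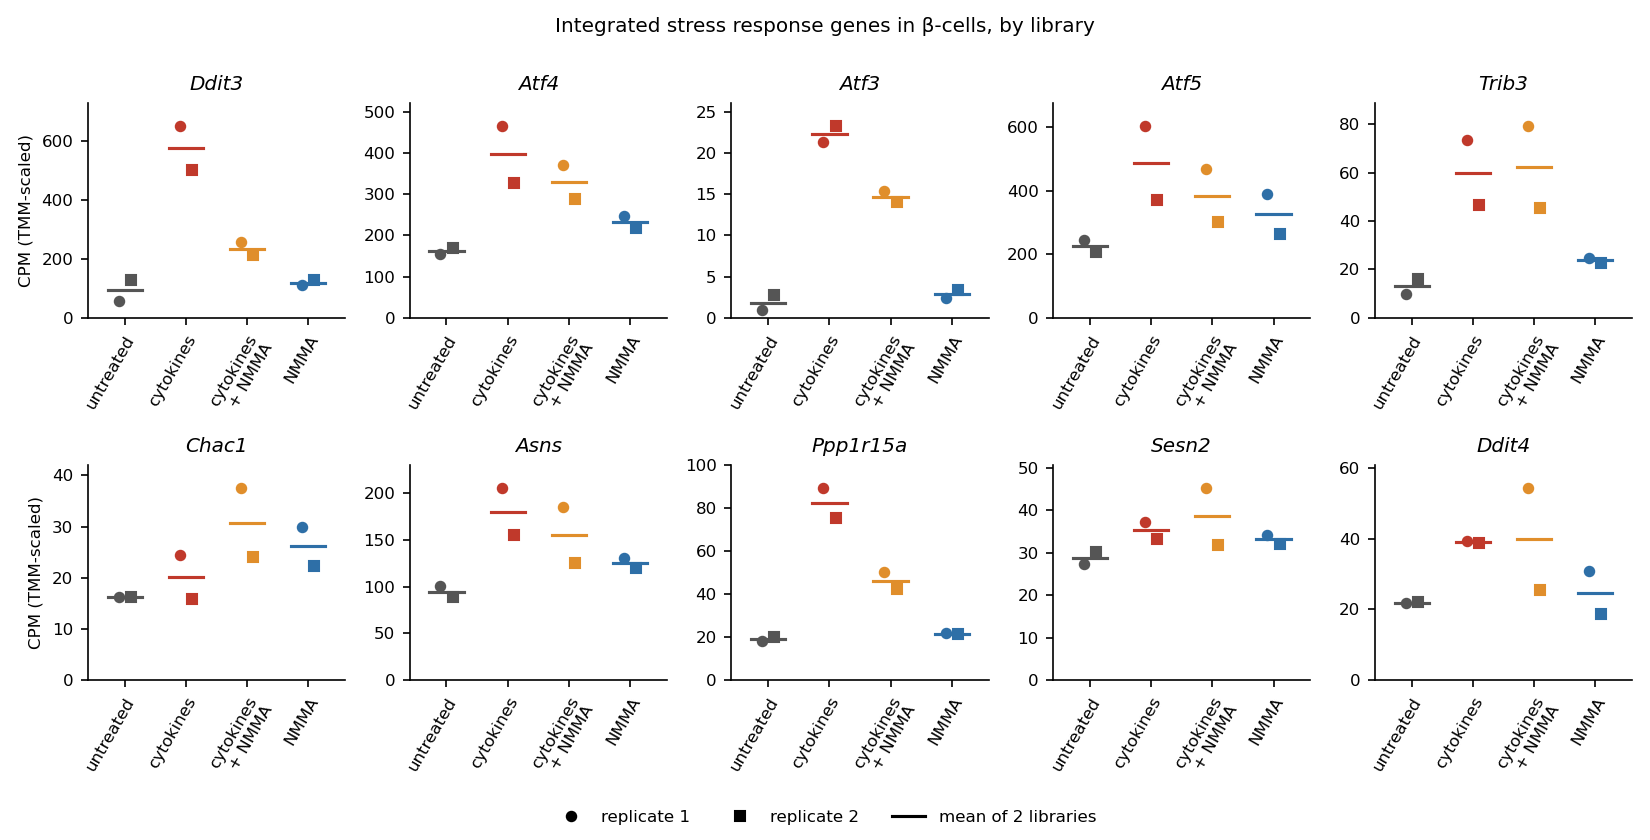
Level of each of the 10 members in β-cells, in CPM after TMM scaling, by condition, with a circle for replicate 1, a square for replicate 2, and a line at the mean of the 2 libraries. *Ddit3* lies between 503 and 653 CPM with cytokines and between 213 and 257 with cytokines and NMMA, while *Trib3* overlaps between these conditions.

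*Ddit3* encodes CHOP, a transcription factor tied to cell death under prolonged stress. Its level in β-cells was 58.4 and 130.2 CPM without treatment, 653 and 503 with cytokines, 257 and 213 with cytokines and NMMA, and 110.5 and 128 with NMMA alone. The cytokine libraries lay above all others, those with cytokines and NMMA came next, and the untreated and NMMA libraries overlapped. The means were 94.3 ± 50.8 (SD, n = 2) without treatment and 578 ± 106 with cytokines, a 6.14-fold difference (log2 2.62, SE 0.36, edgeR quasi-likelihood test with Benjamini-Hochberg adjustment over all genes, adjusted p = 0.0010).

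*Atf4* encodes the central transcription factor of the pathway. It was at 154 and 170.0 CPM without treatment, 466 and 327 with cytokines, 371 and 288 with cytokines and NMMA, and 247 and 217 with NMMA. Treated and untreated libraries did not overlap, whereas the libraries with cytokines did overlap those with cytokines and NMMA. The cytokine difference was 2.44-fold (log2 1.29, SE 0.20, adjusted p = 0.00092).

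*Atf3* encodes a stress-inducible repressor and activator of the same protein family. In β-cells it stood at 0.9995 and 2.73 CPM without treatment, 21.3 and 23.3 with cytokines, 15.4 and 14.0 with both, and 2.36 and 3.33 with NMMA. This was the largest change of a member, 12.8-fold with cytokines (log2 3.68, SE 0.39, adjusted p = 0.00025). *Atf5*, whose mRNA like that of *Atf4* is translated under eIF2 phosphorylation, was at 246 and 207 CPM without treatment, 604 and 371 with cytokines, 468 and 301 with both, and 388 and 263 with NMMA. Its cytokine libraries lay above the untreated libraries by 2.15-fold (log2 1.11, SE 0.31, adjusted p = 0.019). The *Atf5* call was lost without cytokine replicate 1 (log2 0.71, adjusted p = 0.12), without untreated replicate 1 (1.24, 0.063), and without untreated replicate 2 (0.98, 0.10).

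Next come the members that feed back on the response. *Trib3* encodes a pseudokinase that restrains ATF4 and AKT. It was at 10.0 and 15.998 CPM without treatment, 73.3 and 46.5 with cytokines, 79.3 and 45.3 with cytokines and NMMA, and 24.9 and 22.8 with NMMA. Both cytokine conditions lay above the untreated libraries and overlapped each other fully, and the cytokine difference was 4.66-fold (log2 2.22, SE 0.36, adjusted p = 0.0029). *Ppp1r15a* encodes GADD34, the subunit that directs a phosphatase to eIF2α and ends the translational block. Its levels were 18.1 and 20.1 CPM without treatment, 89.5 and 75.6 with cytokines, 50.4 and 42.3 with both, and 21.9 and 21.3 with NMMA. The 4 conditions did not overlap, and the rise with cytokines was 4.33-fold (log2 2.11, SE 0.15, adjusted p = 1.4e-05).

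The remaining members act in metabolism and growth control. *Asns*, which encodes asparagine synthetase, was at 101 and 88.5 CPM without treatment, 206 and 155 with cytokines, 185 and 125 with both, and 130.5 and 119.6 with NMMA. The rise with cytokines was 1.91-fold (log2 0.93, SE 0.21, adjusted p = 0.0059). *Chac1*, which encodes an enzyme that breaks down glutathione, was at 16.1 and 16.3 CPM without treatment, 24.4 and 15.9 with cytokines, 37.5 and 24.0 with both, and 29.9 and 22.3 with NMMA. Its means were highest in the conditions with NMMA, and the cytokine difference did not pass the test (log2 0.32, SE 0.26, adjusted p = 0.35).

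*Sesn2* and *Ddit4* encode stress-induced brakes on the growth kinase complex mTORC1. *Sesn2* was at 27.3 and 30.1 CPM without treatment, 37.3 and 33.3 with cytokines, 45.2 and 31.9 with both, and 34.1 and 32.1 with NMMA (cytokines against untreated, log2 0.30, SE 0.17, adjusted p = 0.17). With the replicate pair as a block its adjusted p was 0.040. *Ddit4* was at 21.8 and 21.997 CPM without treatment, 39.4 and 38.6 with cytokines, 54.4 and 25.5 with both, and 30.9 and 18.6 with NMMA. Its cytokine libraries did not overlap the untreated ones, yet the difference of 0.83 (SE 0.37) did not pass in edgeR (adjusted p = 0.11). It passed in DESeq2 (adjusted p = 0.014) and without either library treated with cytokines and NMMA (adjusted p = 0.013 in each case).

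Which part of the cytokine response depends on nitric oxide was addressed by adding NMMA. In β-cells 2 members were higher with cytokines alone than with cytokines and NMMA, while 9.04% of all genes were. *Ppp1r15a* was 1.78-fold higher (log2 0.83, SE 0.14, adjusted p = 0.0064), and this held under all 16 alternatives run for it. *Ddit3* was 2.46-fold higher (log2 1.30, SE 0.35, adjusted p = 0.038), with no overlap between the libraries. The *Ddit3* call was less stable, passing in 7 of its 16 alternatives. It was lost with the replicate block (adjusted p = 0.13), with total-UMI scaling (log2 1.09, adjusted p = 0.083), and with a mitochondrial limit of 5% (adjusted p = 0.062). It was also lost without cytokine replicate 1 (log2 1.099, adjusted p = 0.19) or 2 (1.49, 0.069), without cytokines and NMMA replicate 1 (1.45, 0.12) or 2 (1.17, 0.19), and without either NMMA replicate (adjusted p = 0.061 each).

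The other 8 members did not pass in that comparison. *Trib3* differed by −0.06 (SE 0.34, adjusted p = 0.93), *Ddit4* by −0.04 (0.96), and *Atf4* by 0.27 (0.37). *Chac1* was lower with cytokines alone by −0.61 (SE 0.26, adjusted p = 0.14), and this passed with the replicate block (adjusted p = 0.0022) and with total-UMI scaling (−0.81, adjusted p = 0.044). *Atf5* differed by 0.34 (adjusted p = 0.47, with the replicate block 0.013). *Atf3* differed by 0.60 (adjusted p = 0.25), and without untreated replicate 2 its adjusted p was 0.047. The median of the members was 0.24, against −0.01 for all genes, of which 1154 were higher and 1331 lower. With total-UMI scaling those counts were 410 and 2358, with a median of all genes of −0.22.

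**Figure D2:**
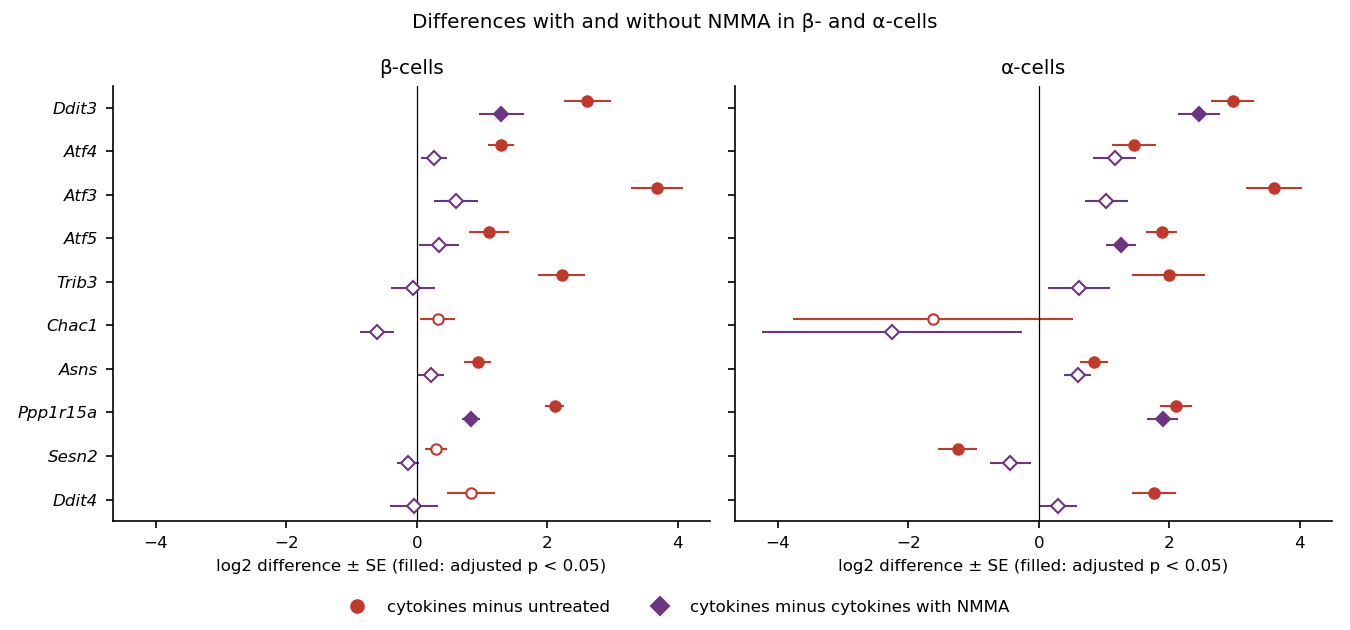
Difference (log2, with SE) of each member between cytokines and untreated (circles) and between cytokines and cytokines with NMMA (diamonds) in β-cells and α-cells. Filled symbols passed at an adjusted p under 0.05, and both differences use the same cytokine libraries. *Trib3* in β-cells has a difference of 2.22 against untreated and of −0.06 against cytokines with NMMA.

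Against untreated β-cells, cytokines with NMMA raised 7 members, while 12.9% of all genes rose. This comparison shares the untreated libraries with the first, so the values stand side by side without a further test. *Atf3* differed by 3.09 (adjusted p = 0.0011), *Trib3* by 2.28 (0.0052), and *Ppp1r15a* by 1.28 (0.00027). *Atf4* differed by 1.02 (adjusted p = 0.0058), which was lost without untreated replicate 1 (0.95, adjusted p = 0.061). *Ddit3* differed by 1.32 (adjusted p = 0.031), lost with the replicate block (0.12), with total-UMI scaling (0.053), with the mitochondrial limit of 5% (1.14, 0.099), and in 7 of 8 fits that left out a library, all but the one without untreated replicate 2 (log2 0.85 to 1.98 over the 8). *Chac1* differed by 0.93 (adjusted p = 0.038), lost without cytokines and NMMA replicate 1 (0.56, adjusted p = 0.23), untreated replicate 1 (0.92, 0.18), or untreated replicate 2 (0.90, 0.14). *Asns* differed by 0.72 (adjusted p = 0.035), lost without cytokines and NMMA replicate 1 (0.40, adjusted p = 0.27), untreated replicate 1 (0.81, 0.11) or 2 (0.59, 0.18), or either NMMA replicate (0.058 each). *Atf5* did not pass (0.76, adjusted p = 0.11), yet did with the replicate block (1.5e-05) and in DESeq2 (0.016). *Sesn2* (0.43, adjusted p = 0.0998) and *Ddit4* (0.87, 0.15) passed without cytokines and NMMA replicate 2 (0.66, 0.026, and 1.31, 0.0090), *Sesn2* with the replicate block (0.0095), and *Ddit4* in DESeq2 (0.020).

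NMMA alone changed no member in β-cells (0 of 10 in edgeR and in DESeq2, and 3 of 10 at an unadjusted p under 0.05), and 0% of all genes passed (926 at an unadjusted p under 0.05). The differences were nevertheless all above 0, from 0.18 for *Ppp1r15a* and *Ddit4* to 0.89 for *Trib3*, with a median of 0.46 against 0.00 for all genes. With the replicate pair as a block, 4 members passed: *Atf4* (0.51, adjusted p = 0.042), *Atf5* (0.50, 0.013), *Chac1* (0.70, 0.013), and *Asns* (0.41, 0.040). That fit called 3.43% of all genes (438 of 12767).

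Other genes of the pathway were read from lists chosen by name. Among the eIF2 kinases and factors, 6 of 13 rose and 1 fell with cytokines in β-cells, while 23.8% of all genes rose and 22.4% fell. *Eif2ak3*, which encodes PERK, was at 23.1 and 27.5 CPM without treatment, 64.4 and 74.5 with cytokines, 38.8 and 46.3 with both, and 30.008 and 35.3 with NMMA. It rose with cytokines by 1.46 (adjusted p = 0.00014) and was higher than with cytokines and NMMA by 0.71 (adjusted p = 0.015). *Eif2ak2*, which encodes the double-stranded RNA sensor PKR, was at 13.3 and 16.1 CPM without treatment, 14.1 and 16.9 with cytokines, and 38.4 and 47.3 with cytokines and NMMA. It differed from untreated by 0.08 with cytokines (adjusted p = 0.74) and by 1.54 with cytokines and NMMA (adjusted p = 0.00022), and cytokines alone lay below cytokines with NMMA by −1.47 (adjusted p = 0.0020). The heme-regulated kinase gene *Eif2ak1* differed by 0.07 with cytokines (adjusted p = 0.75) and the amino acid sensor gene *Eif2ak4* by −0.38 (0.19). *Eif2s1*, the gene of eIF2α itself, rose by 0.85 (adjusted p = 0.0023), and *Eif2s3x*, of eIF2γ, by 0.82 (0.0015).

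Of the transcription factor partners, 4 of 5 rose, with *Nupr1* (2.88, adjusted p = 4.6e-05), *Jdp2* (2.72, 0.015), and *Cebpb* (1.35, 0.013) in the lead. Amino acid synthesis genes rose in 6 of 11 cases, among them *Psat1* (1.51), *Mthfd2* (1.26), and *Phgdh* (1.19). Amino acid transporters rose in 7 of 9 cases, among them the cystine carrier *Slc7a11* (2.34), *Slc7a3* (1.78), and *Slc6a9* (1.48). Genes of translation, mostly aminoacyl-tRNA synthetases, rose in 9 of 14 cases, with *Eif4ebp1* (2.22), *Wars* (1.56), and *Yars* (1.43). In none of these 4 lists did a gene fall, and of all genes 23.8% rose and 22.4% fell. Their medians were 1.35, 0.81, 0.69, and 0.74.

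The secreted targets *Stc2* (3.15, adjusted p = 0.0026) and *Gdf15* (1.70, 0.026, with the replicate block 0.058) rose, as 2 of 3 tested of 4 listed. Of the CHOP targets 4 of 6 tested rose, among them the death receptor gene *Tnfrsf10b* (1.93), *Bbc3* (1.28), and *Bcl2l11* (0.69), both of the last pair encoding proapoptotic BH3-only proteins. Among the paralogs of members, 1 of 7 rose and 4 fell, against 22.4% of all genes that fell, with *Sesn3* (−1.22), *Trib2* (−1.04), and *Trib1* (−0.72) lowest. Of 14 genes of the other unfolded protein response arms, 4 rose and 0 fell, a share near the 23.8% of all genes that rose, with the chaperones *Hspa5* (0.65) and *Calr* (0.63) and *Edem1* (0.49) in the lead. Their medians were 1.70, 0.74, −0.55, and 0.27.

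Between cytokines alone and cytokines with NMMA, 9.04% of all genes in β-cells were higher and 10.4% lower with cytokines alone. The eIF2 list had 4 higher and 2 lower there, the transcription factor partners 1 higher (*Nupr1*, 0.99, adjusted p = 0.020, with the replicate block 0.083), and the CHOP targets 1 higher (*Bcl2l11*, 0.65, 0.020). Neither the synthesis, the transport, nor the secreted list had a gene that passed (0 higher and 0 lower in each). The translation list had 1 lower, the paralogs 1 higher and 3 lower, and the other unfolded protein response arms 4 lower. A list of immediate early genes that tissue dissociation raises had 5 of 10 lower and 1 higher with cytokines than untreated (*Egr1* −3.01, *Fos* −2.82, *Fosb* −2.27, the last with an adjusted p of 0.11 with the replicate block), and 6 lower than with cytokines and NMMA. Against untreated, 22.4% of all genes fell and 23.8% rose. The share of mitochondrial UMIs in β-cells was 4.55 to 4.90% without treatment, 3.30 to 3.76% with cytokines, 3.70 to 4.45% with both, and 4.06 to 4.79% with NMMA. The part of either in the members' differences was not tested.

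Within β-cells the members were also counted cell by cell, in cells with at least 10500 UMIs, each thinned to that depth. Cells below it were left out. In replicate 1, 1573 of 1665 untreated cells reached it, 1103 of 1134 with cytokines, 621 of 643 with both, and 653 of 666 with NMMA. In replicate 2 these were 507 of 603, 473 of 573, 351 of 439, and 536 of 610. A UMI of *Ddit3* was seen in 33.8% (95% Clopper-Pearson interval 31.5 to 36.2) and 51.1% (46.6 to 55.5) of untreated cells and in 92.7% (91.0 to 94.1) and 90.1% (87.0 to 92.6) of cytokine-treated cells. It was seen in 75.8% (72.3 to 79.2) and 73.2% (68.3 to 77.8) with cytokines and NMMA, and in 56.5% and 57.3% with NMMA. Without thinning the *Ddit3* shares were 49.4 and 65.7%, 96.0 and 90.8%, 88.2 and 79.5%, and 78.5 and 73.3% in the same order.

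*Trib3* had a UMI in 7.57 and 13.2% of untreated β-cells, 40.8 and 30.7% with cytokines, 47.8 and 31.9% with both, and 18.1 and 20.9% with NMMA. *Ppp1r15a* had one in 17.2 and 17.0%, 51.1 and 42.5%, 37.0 and 33.6%, and 19.3 and 19.2%. For *Trib3* the cytokine conditions overlapped with and without NMMA, and for *Ppp1r15a* they did not. Cells with a UMI of at least 5 of the 10 members made up 19.7 and 28.2% of untreated cells, 71.1 and 57.5% with cytokines, 69.7 and 54.1% with both, and 40.4 and 38.4% with NMMA. These shares overlapped between cytokines with and without NMMA. The intervals cover counting error only. No islet cell type is known to lack these genes, so no background share from free RNA could be set. The lowest *Trib3* shares were those of macrophages, 0 to 7.69% of cells without thinning at a median of 5974 to 14977 UMIs per cell, against 20421 to 29808 UMIs in β-cells.

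In α-cells, cytokines raised 8 members and lowered 1, while 13.4% of the 9671 genes tested rose and 9.46% fell. All 10 members passed the filter, and their median difference was 1.82, against −0.03 for all genes. *Ddit3* was at 23.8 and 41.9 CPM without treatment, 313 and 215 with cytokines, 34.0 and 61.2 with cytokines and NMMA, and 26.1 and 31.5 with NMMA. In contrast to β-cells, the libraries with cytokines and NMMA overlapped the untreated ones, and the cytokine libraries stood alone. The cytokine difference was 7.85-fold (log2 2.97, SE 0.33, adjusted p = 6.2e-05), and against cytokines with NMMA it was 5.48-fold (2.45, SE 0.32, 0.00074).

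*Ppp1r15a* in α-cells was at 23.1 and 31.5 CPM without treatment, 122 and 115 with cytokines, 37.3 and 26.5 with both, and 27.2 and 27.4 with NMMA. It followed *Ddit3* in that only cytokines alone stood apart (log2 2.102, SE 0.24, adjusted p = 1.1e-05, and 1.90, SE 0.24, 0.00017 against cytokines with NMMA). *Atf5* was at 36.7 and 44.6 CPM without treatment, 137 and 162 with cytokines, 50.7 and 74.5 with both, and 35.9 and 30.8 with NMMA. It rose by 1.88 (SE 0.24, adjusted p = 2.8e-05) and was higher than with cytokines and NMMA by 1.26 (SE 0.23, 0.0021). *Ddit3*, *Ppp1r15a*, and *Atf5* were the 3 members higher with cytokines alone than with NMMA added, against 5.46% of all genes, and each passed under all 18 alternatives run. The alternative without a minimum of cells is the main fit again here, since no α-cell library held fewer than 49 cells.

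*Atf4* in α-cells was at 101 and 153 CPM without treatment, 422 and 283 with cytokines, 119 and 195 with both, and 92.4 and 153 with NMMA. The cytokine libraries lay above all others. The rise of 1.46 (SE 0.34, adjusted p = 0.012) was lost without cytokine replicate 1 (1.15, adjusted p = 0.11) or untreated replicate 1 (1.19, 0.069). The difference of 1.16 from cytokines with NMMA just missed the threshold (adjusted p = 0.053). It passed with the replicate block (0.026), in DESeq2 (0.0088), and after counts of β-cell RNA were subtracted (0.029). With the hormone rule (1.29, 0.0051), doublets removed (0.049), or no low-count filter (1.0e-05) this difference passed as well. It also passed without either untreated library (0.037 and 0.035), either NMMA library (0.038 and 0.030), or cytokines and NMMA replicate 2 (1.56, 0.023).

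*Atf3* was at 2.16 and 6.53 CPM in untreated α-cells, 76.1 and 41.7 with cytokines, 27.9 and 27.6 with both, and 3.26 and 2.05 with NMMA. It rose by 3.601 with cytokines (SE 0.42, adjusted p = 1.2e-05), and lay above cytokines with NMMA by 1.03 (adjusted p = 0.052, with the replicate block 0.0050). That difference passed without cytokine replicate 2 (1.49, 0.010), untreated replicate 1 (0.039), or untreated replicate 2 (0.041). *Ddit4* was at 10.8 and 10.9 CPM, 46.3 and 30.4, 35.7 and 25.0, and 20.6 and 17.8 in the same order. It rose by 1.76 (SE 0.34, adjusted p = 0.0013), with cytokine conditions that overlapped each other.

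*Trib3* was scarce in α-cells, at 3.602 and 4.35 CPM without treatment, 13.2 and 18.2 with cytokines, 8.36 and 12.8 with both, and 1.09 and 7.53 with NMMA. Its rise of 1.99 (SE 0.56, adjusted p = 0.017) was lost in DESeq2 (0.077), when cells were clustered without the members (0.060), and without cytokine replicate 2 (1.73, 0.14), untreated replicate 1 (1.88, 0.074), or untreated replicate 2 (2.14, 0.065). *Asns* was at 63.4 and 68.0 CPM, 108 and 127, 72.4 and 83.7, and 51.1 and 66.4. Its rise of 0.84 (SE 0.21, adjusted p = 0.0090) was lost with total-UMI scaling (0.36, 0.23) and without cytokine replicate 2 (0.74, 0.051) or untreated replicate 1 (0.79, 0.071). Against cytokines with NMMA *Asns* differed by 0.59 (adjusted p = 0.079, with the replicate block 0.023).

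*Sesn2* was the member that fell in α-cells. It was at 33.1 and 41.9 CPM without treatment, 14.9 and 16.5 with cytokines, 21.2 and 21.9 with both, and 40.2 and 33.5 with NMMA. Both cytokine conditions lay below both conditions without cytokines, and the difference was −1.24 (SE 0.30, adjusted p = 0.0064). This call was lost in DESeq2 (adjusted p = 0.064) and without untreated replicate 2 (−1.06, 0.070). *Chac1* rested on 2 UMIs in each cytokine library of α-cells (3.31 and 1.74 CPM), against 2.88 and 10.9 CPM without treatment and 3.34 and 18.9 with both, and no fold is given. It lay below cytokines with NMMA at an adjusted p of 0.011 with the replicate block, against 0.56 without it. The replicate block called 7 members in that comparison and 19.7% of all genes (1901 of 9671).

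Against untreated α-cells, cytokines with NMMA raised 2 members, *Atf3* (2.57, SE 0.43, adjusted p = 0.00055) and *Ddit4* (1.47, SE 0.32, 0.0052), while 6.27% of all genes rose. The *Ddit4* call was lost with the mitochondrial limit of 5% (0.91, adjusted p = 0.32), without cytokines and NMMA replicate 1 (1.20, 0.071), or without untreated replicate 2 (1.48, 0.057). *Sesn2* differed by −0.81 (adjusted p = 0.057), and passed with the replicate block (0.016), with total-UMI scaling (−0.93, 0.032), after subtraction of β-cell RNA (−0.96, 0.033), and without either cytokine library (0.047 and 0.039). *Atf5* (0.62, adjusted p = 0.14) and *Trib3* (1.38, 0.14) passed with the replicate block (0.039 and 0.041), and *Ddit3* differed by 0.52 (adjusted p = 0.47). Of all genes 606 rose and 214 fell, and with total-UMI scaling 511 and 307 (median of all genes −0.13).

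Of the genes tested in α-cells, 1300 rose and 915 fell with cytokines, and with total-UMI scaling 639 and 2665 (median of all genes −0.51). Against cytokines with NMMA 528 were higher and 502 lower, and with total-UMI scaling 235 and 1588 (median −0.40). The summed level of the 9 β-cell markers in the α-cell sums was 8423 to 10612 CPM without treatment, 11299 to 11368 with NMMA, 30507 to 48118 with cytokines, and 27023 to 70679 with both. If all insulin there came from β-cell RNA, β-cells would account for 4.19 to 60.6% of *Ddit3* counts, 6.94 to 70.4% of *Atf5* counts, and 0.954 to 27.8% of *Ppp1r15a* counts. After those counts were subtracted, *Ddit3* differed by 2.78 between cytokines and untreated and by 3.12 between cytokines and cytokines with NMMA, and *Atf5* by 1.59 and 2.01. All 3 genes kept their calls in both comparisons.

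In α-cells, 3 of 13 eIF2 genes, 3 of 3 tested transcription factor partners, 3 of 9 synthesis genes, 3 of 5 transporters, 7 of 14 translation genes, and 3 of 5 CHOP targets rose with cytokines. Both secreted targets tested stayed below the threshold, 1 of 5 paralogs fell, 7 of 14 genes of the other unfolded protein response arms rose, and 4 of 10 dissociation genes rose and 2 fell. Of all genes 13.4% rose and 9.46% fell, so that the eIF2 list and the paralogs lay near that background. *Eif2ak3* was at 20.9 and 26.1 CPM without treatment, 114 and 96.4 with cytokines, 26.2 and 29.6 with both, and 33.7 and 34.2 with NMMA. Its difference was 2.14 against untreated (adjusted p = 5.4e-06) and 1.90 against cytokines with NMMA (0.00011). The cytokine libraries were the highest. Those with NMMA alone came next, above the untreated libraries and those with both, which barely separated (26.1 and 26.2 CPM). *Eif2ak2* was again lower with cytokines alone than with NMMA added, by −1.17 (adjusted p = 0.0040).

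**Figure D3:**
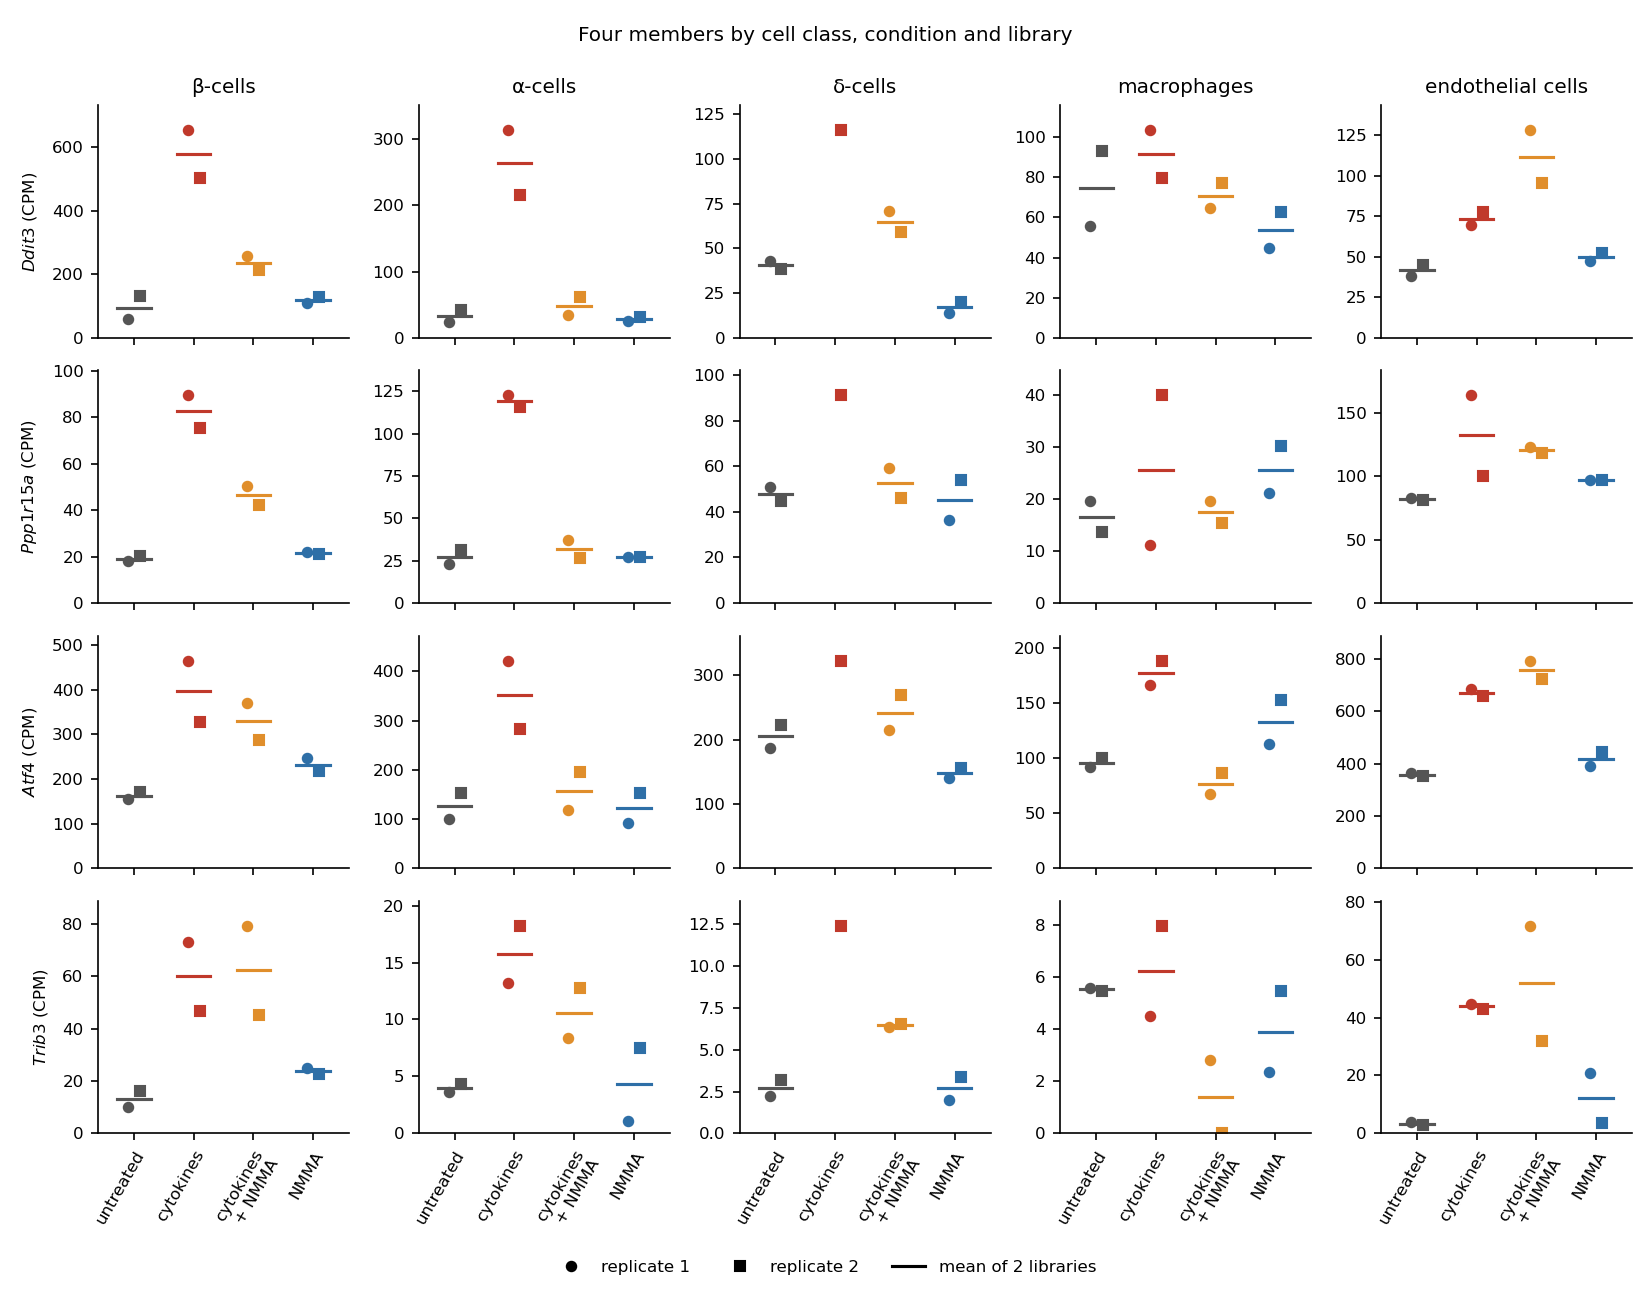
Levels of *Ddit3*, *Ppp1r15a*, *Atf4*, and *Trib3* (CPM after TMM scaling, each panel with its own axis from 0) in 5 cell classes by condition, with a circle for replicate 1, a square for replicate 2, and a line at the mean where there are 2 libraries. *Ddit3* with cytokines and NMMA lies at 213 to 257 CPM in β-cells and at 34.0 to 61.2 CPM in α-cells.

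In endothelial cells, cytokines raised *Atf3*, *Atf4*, *Trib3*, and *Asns*, 4 of the 9 members that passed the filter, while 4.65% of 7503 genes rose. *Trib3* was at 3.84 and 2.82 CPM without treatment (2 UMIs in each library), 44.7 and 43.1 with cytokines, 71.8 and 31.9 with both, and 20.7 and 3.595 with NMMA. The rise of 3.64 (SE 0.77, adjusted p = 0.0066) was lost without cytokine replicate 2 (3.67, 0.057) or untreated replicate 2 (3.43, 0.059). *Atf3* was at 11.5 and 35.2 CPM, 149 and 121, 123 and 121, and 47.8 and 28.8 in the same order, and rose by 2.43 (SE 0.40, adjusted p = 0.00080).

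*Atf4* was at 365 and 352 CPM in untreated endothelial cells, 685 and 658 with cytokines, 795 and 724 with both, and 391.7 and 446 with NMMA. Its rise of 0.90 (SE 0.22, adjusted p = 0.016) was lost with total-UMI scaling (0.71, 0.061) and without cytokine replicate 1 (0.066) or 2 (0.062) or untreated replicate 1 (0.11) or 2 (0.12). *Asns* was at 40.3 and 18.3 CPM, 109 and 74.7, 97.4 and 66.0, and 30.3 and 28.8. It rose by 1.65 (SE 0.39, adjusted p = 0.015), lost in DESeq2 (0.090) and without cytokine replicate 1 (1.41, 0.11) or untreated replicate 2 (1.16, 0.18).

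*Ddit3* in endothelial cells was at 38.4 and 45.1 CPM without treatment, 69.5 and 77.6 with cytokines, 128 and 95.6 with both, and 47.8 and 52.1 with NMMA. The libraries with both were the highest, and neither its difference from untreated (0.82, adjusted p = 0.18) nor that from cytokines with NMMA (−0.55, adjusted p = 0.999) passed. Cytokines with NMMA did raise it against untreated (1.37, SE 0.30, adjusted p = 0.0081), a call lost in DESeq2 (1.41, 0.086) and without untreated replicate 1 (1.27, 0.074). *Atf3* (2.30), *Atf4* (1.08), *Trib3* (3.74), and *Asns* (1.46) rose there too, so that 5 of 9 members did, against 5.01% of all genes. The *Asns* call was lost in DESeq2 (0.16), with total-UMI scaling (1.23, 0.082), without either library of cytokines and NMMA (1.26, 0.16, and 1.78, 0.059), or without untreated replicate 2 (0.98, 0.30). In that comparison 376 of all genes rose and 120 fell, and with total-UMI scaling 291 and 244 (median of all genes −0.26). *Ppp1r15a* was at 82.6 and 81.7 CPM, 164 and 101, 123 and 118, and 97.1 and 97.1 (0.64, adjusted p = 0.25). *Sesn2* differed by 1.13 (adjusted p = 0.25), *Ddit4* by 0.62 (0.53), and *Atf5* by −0.29 (0.78), and *Chac1* was below the filter at 3.595 to 24.8 CPM.

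Between cytokines with and without NMMA, 0 of 9 members differed in endothelial cells in edgeR, in DESeq2, or at an unadjusted p under 0.05, and 0% of all genes did (365 at an unadjusted p under 0.05). With total-UMI scaling the genes that rose and fell with cytokines were 263 and 208 in place of 349 and 130 (median of all genes −0.22). The β-cell marker sum was 2267 to 4874 CPM, and the insulin-scaled share of any member's counts was at most 6.45%. The summed level of the endothelial markers was 11886 to 13906 CPM without treatment, 11319 to 14363 with NMMA, 6335 to 9004 with cytokines, and 6536 to 7068 with both. Macrophage markers were at 1632 CPM in cytokines and NMMA replicate 1 and at 1.85 to 17.8 CPM in the other endothelial sums. Their part in the members' differences was not tested.

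In δ-cells the cytokine group was the single library of 12 cells, in which α-cell markers summed higher than δ-cell markers and whose spread was assumed to be that of the other groups. There *Ddit3* was at 116 CPM, against 43.1 and 38.3 without treatment, 70.9 and 59.0 with both, and 14.2 and 20.3 with NMMA (log2 1.48 against untreated, SE 0.39, adjusted p = 0.016). *Atf3* was at 45.6 CPM, against 6.62 and 3.19 (6 and 1 UMIs), 19.1 and 27.5, and 2.02 and 0 (2.97, SE 0.77, adjusted p = 0.016). *Asns* was at 137 CPM, against 56.3 and 57.4, 59.3 and 94.4, and 38.5 and 47.3 (1.27, SE 0.37, adjusted p = 0.034).

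These 3 rose among 9 members that passed the filter in δ-cells, where 4.83% of 8325 genes rose. None of the 3 passed in DESeq2. The *Ddit3* call was also lost after subtraction of β-cell RNA (0.96, adjusted p = 0.23), when cells were clustered without the members (1.39, 0.33), and without untreated replicate 1 (1.58, 0.059). The *Atf3* call was lost without cytokines and NMMA replicate 2 (2.98, 0.059) or untreated replicate 1 (3.73, 0.064), and the *Asns* call with the replicate block (0.095), after subtraction of β-cell RNA (1.21, 0.056), with the mitochondrial limit of 5% (0.054), without NMMA replicate 1 (0.062), or without untreated replicate 1 (0.12). *Atf4* was at 323 CPM against 188 and 223 (0.66, adjusted p = 0.17), and passed with the mitochondrial limit of 5% (0.96, 0.032) and when cells were clustered without the members (0.97, 0.034). *Atf5* was at 153 CPM against 80.6 and 70.1 (0.997, adjusted p = 0.063, without NMMA replicate 2 0.047). Between cytokines with and without NMMA 0 of 9 members passed in edgeR and in DESeq2, 2 did at an unadjusted p under 0.05, and 2.63% of all genes differed. The β-cell marker sum was 28158 to 37442 CPM without treatment, 50530 with cytokines, and 47006 to 53681 with both. In the cytokine library the 7 α-cell markers summed to 32819 CPM, above the 25231 CPM of the 5 δ-cell markers, whereas without treatment they were at 665 to 1799 CPM against 83455 to 83556. With both, α-cell markers were at 5675 to 14947 CPM and δ-cell markers at 37157 to 37471. The PP-cell markers summed above the δ-cell markers without treatment (102899 to 166948 CPM) and with both (46612 to 60735 CPM). With cytokines they were at 23896 CPM, and with NMMA at 99729 to 115090 against 85951 to 103426 CPM for δ-cell markers. The part of β-cell RNA was not tested beyond that subtraction, and the parts of α-cell and PP-cell RNA were not tested.

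Untreated macrophages had the highest level of *Atf3* of the 5 classes, 168 and 193 CPM, and it was at 492 and 231 with cytokines, 303 and 327 with both, and 141 and 199.6 with NMMA. The cytokine libraries lay above the untreated ones (1.003, SE 0.32) and the difference did not pass (adjusted p = 0.10), except without cytokine replicate 2 (1.44, adjusted p = 0.0088). *Atf4* was at 92.2 and 99.9 CPM, 166 and 189, 67.3 and 86.5, and 113 and 153. Its cytokine libraries were the highest, with a difference of 0.88 from untreated (adjusted p = 0.078, with the replicate block 0.014) and of 1.19 from cytokines with NMMA (adjusted p = 0.15, with the replicate block 0.017). The replicate block called 8.39% and 0.677% of all genes in these comparisons.

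*Ddit3* in macrophages was at 55.9 and 93.0 CPM without treatment, 103 and 79.8 with cytokines, 64.5 and 76.9 with both, and 44.8 and 62.9 with NMMA. The cytokine and untreated libraries overlapped (0.26, adjusted p = 0.79). *Atf5* was highest with NMMA alone, at 40.1 and 76.6 CPM against 14.0 and 19.2 without treatment (1.73, adjusted p = 1.0). Only 6 members passed the filter in macrophages. *Asns*, *Chac1*, *Sesn2*, and *Trib3* stayed below it, at 0 to 24.6, 0 to 13.7, 0 to 19.1, and 0 to 7.98 CPM. Of the 6, 0 passed in edgeR or DESeq2 with cytokines against untreated (2 at an unadjusted p under 0.05), and 4.36% of 5616 genes did. Against cytokines with NMMA 0 passed (1 unadjusted), and 0.0356% of all genes did. The β-cell marker sum in macrophages was 18573 to 42839 CPM without treatment and 53302 to 67522 with NMMA, but 2318 to 6531 with cytokines and 3878 to 4194 with both. If all insulin there came from β-cell RNA, it would account for 109% (18.5 of 17 UMIs) and 62.5% of the *Atf5* counts with NMMA. Over the macrophage libraries that share was 18.8 to 112% for *Atf5*, 24.1 to 207% for *Asns*, 2.99 to 36.9% for *Ddit3*, and 0.023 to 0.303% for *Atf3*.

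**Figure D4:**
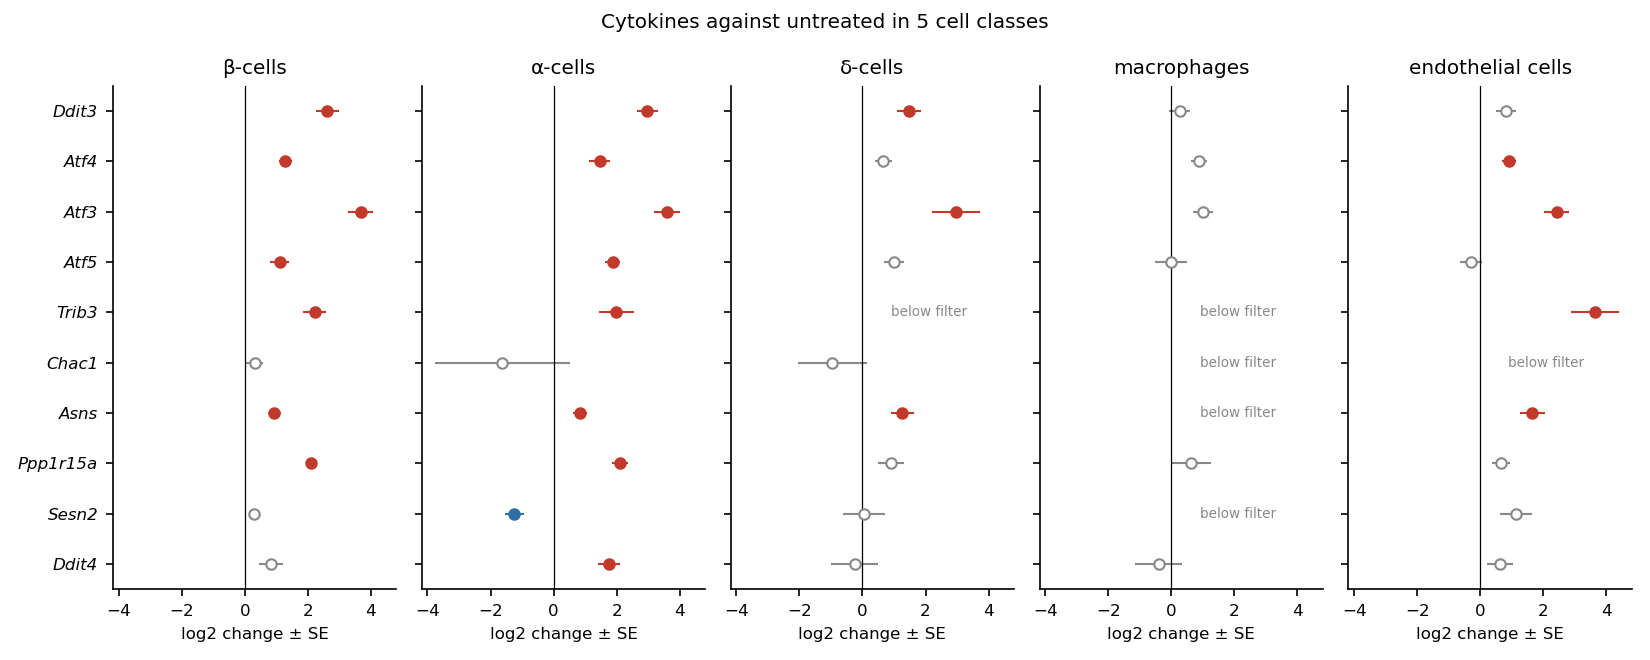
Difference (log2, with SE) of each member between cytokines and untreated in 5 cell classes. Red symbols rose, blue fell, and open grey symbols did not pass at an adjusted p under 0.05. *Atf3* rose in every class but macrophages, and *Sesn2* fell in α-cells (−1.24).

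Differences between cell classes were tested in 1 fit per pair of classes, with each library as a block because both sums come from the same library. The change of *Sesn2* with cytokines was higher in β-cells than in α-cells by 1.43 (SE 0.33, adjusted p = 0.0043), the 1 member of 10 called so, against 1.85% of all genes. It was lost without untreated replicate 2 (1.31, adjusted p = 0.062). *Atf5* then passed, in the other direction, without untreated replicate 2 (−1.22, 0.014) and without either library of cytokines and NMMA (−0.92, with 0.0035 and 0.0038). The excess of cytokines alone over cytokines with NMMA was smaller in β-cells than in α-cells for *Ddit3* (−1.18, SE 0.23, adjusted p = 0.0033) and *Ppp1r15a* (−1.10, SE 0.23, 0.0029), against 0.99% of all genes. The *Ddit3* difference was lost without cytokines and NMMA replicate 1 (−0.69, adjusted p = 0.18) and that of *Ppp1r15a* without cytokines and NMMA replicate 2 (−0.96, 0.063). *Atf4* passed without cytokines and NMMA replicate 2 (−1.46, 3.1e-06), untreated replicate 2 (−0.93, 0.0032), or either NMMA library (0.049 and 0.026), and *Atf5* without cytokines and NMMA replicate 2 (−1.58, 5.1e-06) or untreated replicate 2 (−0.98, 0.0064).

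Compared with endothelial cells, cytokines raised *Ddit3* more in β-cells by 1.65 (SE 0.37, adjusted p = 0.00047), *Ppp1r15a* by 1.34 (SE 0.32, 0.0012), and *Atf5* by 1.17 (SE 0.33, 0.0099), against 3.73% of all genes. The first was lost without untreated replicate 1 (1.29, adjusted p = 0.11) and the second without cytokine replicate 2 (1.08, 0.090). *Atf5* was lost without cytokine replicate 1 (0.82, 0.32) or untreated replicate 1 (1.001, 0.23). The excess over cytokines with NMMA was also higher in β-cells for *Ddit3*, by 1.80 (SE 0.36, adjusted p = 0.00014, in 8 of 8 fits that left out a library), against 0.581% of all genes.

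Compared with macrophages, β-cells had the higher rise of *Atf3* (2.78, SE 0.35, adjusted p = 6.0e-13) and *Ddit3* (2.39, SE 0.36, 6.6e-09), both in 8 of 8 such fits, against 5.16% of all genes, whose median difference was 0.36. *Ppp1r15a* passed as well without cytokine replicate 2 (2.77, 0.013). The *Atf3* difference holds on the log2 scale only. Its mean went from 1.86 to 22.3 CPM in β-cells and from 180 to 362 CPM in macrophages, so the gain in CPM was larger in macrophages. In the comparison with NMMA added, 0 of 10 members differed between β-cells and macrophages (4 at an unadjusted p under 0.05, and 0.733% of all genes). Between β-cells and δ-cells 0 of 10 differed in either comparison (2 and 1 unadjusted), where 2.38% and 1.8% of all genes did. *Ddit3* against δ-cells passed without untreated replicate 2 (1.68, adjusted p = 0.0064), without NMMA replicate 2 (1.16, 0.049), after subtraction of β-cell RNA (1.69, 0.0043), and when cells were clustered without the members (1.28, 0.027). Only edgeR was run for the differences between classes.

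Total-UMI scaling changed no member's call in these class differences but moved the background. For β-cells minus α-cells the genes called higher and lower with cytokines went from 235 and 304 to 1097 and 136 (median of all genes 0.34), and in the comparison with NMMA added from 117 and 126 to 273 and 72 (0.20). For δ-cells they went from 150 and 176 to 62 and 237 (−0.10, from 0.18), and from 90 and 157 to 35 and 227 (−0.13, from 0.19). For macrophages they went from 668 and 108 to 414 and 131 (0.18), and from 49 and 46 to 25 and 90 (−0.18). For endothelial cells they went from 495 and 338 to 685 and 286 (0.14), and from 77 and 125 to 36 and 225 (−0.21).

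*Nos2* and *Hspa1a*, which encodes an inducible heat shock protein, were used to divide β-cells within each library into cells with and without a UMI of that gene. The main division used the thinned cells, so β-cells under 10500 UMIs were left out. With cytokines, cells with *Nos2* (531 and 209) and without it (572 and 264) had 0 of 10 members past the test (1 unadjusted), while 4.3% of all genes passed. *Ddit4* passed there without either library of cytokines and NMMA (0.45, adjusted p = 0.038, and 0.44, 0.040). *Ddit3*, for example, was at 597 and 514 CPM in cells with *Nos2* and 628 and 492 in cells without. With cytokines and NMMA *Trib3* was higher in cells with *Nos2*, at 83.9 and 50.7 CPM against 56.8 and 29.4 (0.63, SE 0.14, adjusted p = 0.0055), the 1 member called so, against 3.2% of all genes. This was lost without cytokines and NMMA replicate 1 (0.78, adjusted p = 0.063) and at a depth of 5000 UMIs (0.41, 0.23). In the same cells *Atf3* was at 15.6 and 8.31 CPM with *Nos2* and 20.4 and 30.2 without, which passed without cytokine replicate 1 (−0.93, 0.0042) or 2 (−0.93, 0.0039), without cytokines and NMMA replicate 1 (−1.86, 0.00011), and with no filter (−0.91, 0.0050). With total-UMI scaling the genes called higher and lower with *Nos2* were 259 and 192 in place of 320 and 104 with cytokines, and 768 and 140 in place of 315 and 281 with cytokines and NMMA (median of all genes 0.16).

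For *Hspa1a* the sign of the *Ddit3* difference turned with the treatment. Without treatment *Ddit3* was at 109 and 333 CPM in β-cells with *Hspa1a* and 54.6 and 106 in those without (1.35, SE 0.13, adjusted p = 9.1e-12). With NMMA alone it was at 185 and 218 against 105 and 101 CPM (0.97, SE 0.13, adjusted p = 2.7e-07). With cytokines the order was the other way, at 503 and 439 CPM with *Hspa1a* and 688 and 557 without (−0.40, SE 0.11, adjusted p = 0.015). With cytokines and NMMA it was at 271 and 255 CPM with *Hspa1a* and 241 and 219 without (0.19, SE 0.12, adjusted p = 0.38), which passed at a depth of 5000 UMIs (0.47, 0.021) and was −0.07 with total-UMI scaling (0.71). The call with cytokines was lost without cytokine replicate 1 (−0.33, adjusted p = 0.48) or 2 (−0.44, 0.17), and the difference between the conditions was not tested.

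In untreated β-cells 6 members were higher with *Hspa1a*, against 3.12% of all genes. Besides *Ddit3* these were *Atf3* (2.20, adjusted p = 0.019), *Ppp1r15a* (0.79, 0.031), *Ddit4* (0.78, 0.017), *Atf4* (0.58, 0.0013), and *Atf5* (0.56, 0.0024). The *Atf3* call rested on few counts, 8 and 5 UMIs in cells with *Hspa1a* and 7 and 13 in those without. *Atf3* was lost without untreated replicate 1 (0.85, adjusted p = 0.71), *Ddit4* without untreated replicate 1 (0.96, 0.056) or 2 (0.65, 0.62), and *Ppp1r15a* (0.49, 0.81), *Atf4* (0.44, 0.41), and *Atf5* (0.35, 0.62) without untreated replicate 2. With cytokines *Ddit4* was higher (0.58, adjusted p = 0.015, against 3.26% of all genes), and *Ddit3* and *Trib3* lower (*Trib3* −0.50, 0.013, against 2.3%). *Ddit4* was lost without cytokine replicate 2 (0.36, adjusted p = 0.43) and at a depth of 5000 UMIs (0.40, 0.36), and *Trib3* without cytokine replicate 1 (−0.30, 0.70) or 2 (−0.58, 0.051). *Sesn2* passed without either untreated library (−0.48, 0.035 and 0.036).

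With cytokines and NMMA 3 members were higher with *Hspa1a*, against 5.37% of all genes: *Atf3* (1.18, adjusted p = 0.0016), *Ppp1r15a* (0.65, 0.0058), and *Ddit4* (0.62, 0.015). Each was lost without cytokines and NMMA replicate 1 (1.23, 0.14, then 0.61, 0.29, then 0.63, 0.38) and without replicate 2 (1.09, 0.073, then 0.63, 0.11, then 0.57, 0.16). At a depth of 5000 UMIs *Atf3* (1.01, 0.061) and *Ddit4* (0.66, 0.098) were lost as well. With NMMA alone *Ddit3* and *Ppp1r15a* (1.07, adjusted p = 0.0010) were higher, against 1.59% of all genes, and *Ppp1r15a* was lost without NMMA replicate 2 (0.69, 0.79). *Atf4* passed without either untreated library (0.38, 0.028 and 0.029), *Atf4* (0.48, 0.041) and *Atf3* (3.22, 0.00019) passed at a depth of 5000 UMIs, and *Trib3* without untreated replicate 1 (0.68, 0.049). At the main depth *Atf3* with NMMA alone had only 3 and 13 UMIs in cells with *Hspa1a* and 9 and 10 in those without. *Ppp1r15a* with cytokines lay at 72.4 and 62.5 CPM with *Hspa1a* and 96.7 and 70.8 without, the same order as *Ddit3*, and did not pass.

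The division by *Hspa1a* also depended on the scaling. With total-UMI scaling the called *Ddit3* differences kept their signs and calls, at 1.19 untreated, 0.80 with NMMA, and −0.67 with cytokines. The genes called higher and lower with *Hspa1a* went from 326 and 56 to 129 and 137 untreated (median of all genes −0.16), from 341 and 240 to 95 and 1616 with cytokines (−0.27), from 561 and 297 to 240 and 1214 with both (−0.27), and from 166 and 16 to 74 and 104 with NMMA (−0.17). With cytokines *Atf4* (−0.32, adjusted p = 0.023), *Chac1* (−0.58, 0.044), *Ppp1r15a* (−0.59, 0.0015), and *Sesn2* (−0.75, 0.0010) were then lower with *Hspa1a*, and *Ddit4* no longer passed (0.32, 0.16). With cytokines and NMMA *Asns* (−0.51, 0.0034) and *Trib3* (−0.74, 0.0020) were then lower, and *Ddit4* (0.37, 0.17) and *Ppp1r15a* (0.40, 0.11) no longer passed. In untreated cells *Ddit4* (0.64, 0.087) and *Ppp1r15a* (0.66, 0.11) no longer passed.

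**Figure D5:**
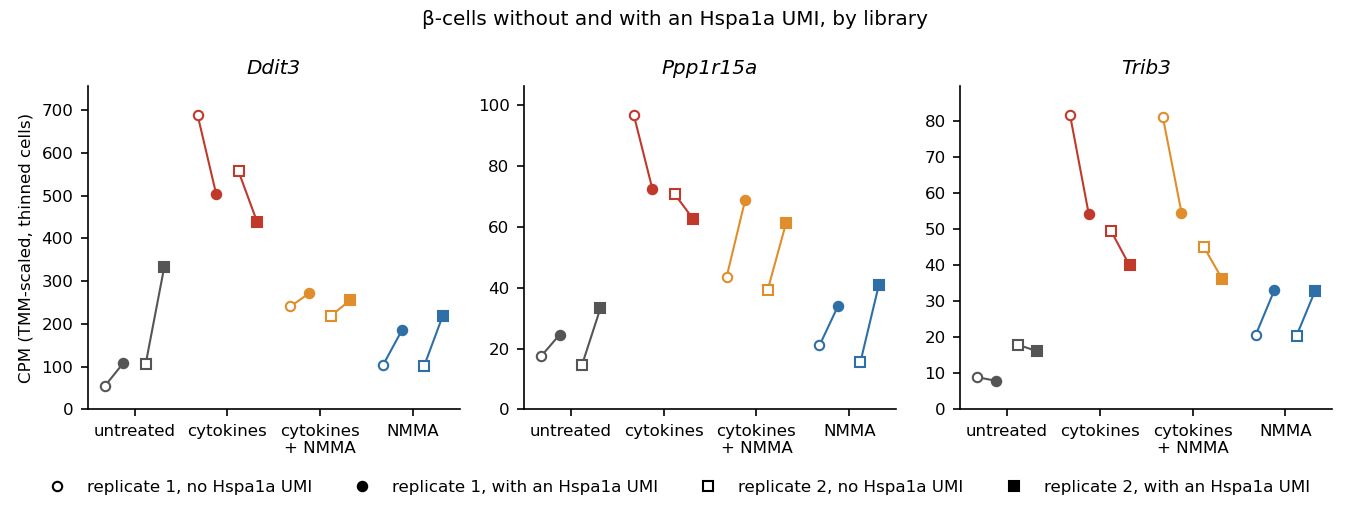
*Ddit3*, *Ppp1r15a*, and *Trib3* (CPM after TMM scaling) in thinned β-cells without (open) and with (filled) a UMI of *Hspa1a*, joined within each library, by condition, with circles for replicate 1 and squares for replicate 2. *Ddit3* is higher with *Hspa1a* in untreated libraries (109 and 333 against 54.6 and 106 CPM) and lower in cytokine libraries (503 and 439 against 688 and 557 CPM).

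Over the 8 β-cell sums the members fell into more than one pattern. *Ddit3* and *Ppp1r15a* had a Pearson r of 0.965 on log2 CPM, *Atf4* and *Trib3* of 0.970, and *Atf5* and *Asns* of 0.967, while *Ddit3* and *Chac1* had an r of 0.163. Among the 12767 genes tested, the 5 most like *Ddit3* were *Capza2* (0.994), *Stbd1* (0.994), *Pacsin2* (0.992), *Fermt2* (0.990), and *Lmo1* (0.990). Those most like *Trib3* were *Ptp4a2* (0.990), *Lonp1* (0.989), *Aars* (0.989), *Elmo1* (0.987), and *Il10rb* (0.984). *Lonp1* encodes a mitochondrial protease and *Aars* alanyl-tRNA synthetase. These correlations describe 8 libraries of 4 conditions that share their depth and replicate pools, and carry no test.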

How the data were processed

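The data are droplet-based single-cell RNA-sequencing of mouse islets in 8 libraries, 2 replicates of 4 conditions. The authors deposited unnormalized counts (UMIs of each gene in each barcode) from Cell Ranger 3.0.0 for replicate 1 and 6.0.0 for replicate 2 per the file headers, on a genome the submitters' processing notes give as mm10. The labels name a v2 kit and the methods a v3 kit. The gene lists differ between replicates, so only the 30406 gene IDs listed for both were used (99.65 to 99.96% of UMIs, with 597 symbols that differ). Libraries held 26549922 to 50731370 UMIs.

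Barcodes were kept (62.4%) where mitochondrial UMIs made up at most 10% and the genes detected numbered 200 to 5500 in replicate 1 and 200 to 6500 in replicate 2. They were clustered in Python 3.11.15 with scanpy 1.11.5, leidenalg 0.10.2, igraph 0.11.9, numpy 2.4.6, scipy 1.17.1, and pandas 2.3.3 (2000 variable genes, 30 components, 20 neighbours, resolution 1). Clusters were named by marker genes, and the α- and δ-cell clusters were divided once more. The 1598 cells of clusters with few UMIs and 278 insulin-led cells stayed unnamed. Doublets (99 cells, 0.910%, at a rate of 0.8% per 1000 cells) were kept in the main sums and removed in an alternative. Class names were rebuilt here and may differ from the study's.

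Counts were summed per library and class (at least 10 cells) and tested in R 4.3.3 with edgeR 4.0.16 (limma 3.58.1, filterByExpr, TMM, robust quasi-likelihood F test) over all genes, all 4 conditions in 1 fit, with Benjamini-Hochberg adjustment and a threshold of 0.05. The study tested single cells, which are not replicates. The SE given is the log2 difference, without its sign, divided by the square root of the F statistic. DESeq2 1.42.0 was an alternative. A rise or fall refers to genes that passed. Differences between classes used class by condition with library as a block. CPM were computed with TMM-scaled totals. Shares of cells used cells thinned to the largest multiple of 500 UMIs that 80% of cells reach, and cells below that depth were left out. The script was tested on simulated counts. Each replicate number marks 1 islet pool shared by its 4 libraries, so the numbers pair the samples. Same-numbered β-cell sums deviated together (r 0.604 to 0.700, median 0.662, over 6 pairs of conditions). The replicates also differ in Cell Ranger version and in the upper limit on genes, so these r cannot tell the pool from the processing.

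The members and lists (eIF2 kinases and factors, transcription factor partners, amino acid synthesis, transport, translation, secreted, and CHOP targets, paralogs, other unfolded protein response arms, and dissociation genes) were chosen with earlier results of these data known. Named from each list were the 3 genes with the largest called change in β-cells that moved the same way in both replicates, and any eIF2 kinase. Alternatives were total-UMI scaling, no low-count filter, the replicate block, a mitochondrial limit of 5%, doublets removed, clustering without the members, a hormone rule for α- and δ-cells, low-UMI clusters added, no minimum of cells, a depth of 5000 UMIs, subtraction of insulin-scaled β-cell counts, and leaving out each library. That subtraction was added for the differences between classes after seeing the data. Dropping the minimum of cells changed the δ-cell sums only.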

Additional observations from a re-analysis of the deposited data

Results flagged for a closer look

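The results listed here are differences between cell classes in the change of a member under the same comparison, each past the test of that difference (edgeR with library as a block, adjusted p). Between β-cells and α-cells, the change of *Sesn2* with cytokines differed by 1.43 (log2, β-cells minus α-cells, 0.0043). The difference between cytokines alone and cytokines with NMMA was lower in β-cells by −1.18 for *Ddit3* (0.0033) and by −1.10 for *Ppp1r15a* (0.0029).

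Between β-cells and endothelial cells, the change with cytokines was higher in β-cells by 1.65 for *Ddit3* (0.00047), 1.34 for *Ppp1r15a* (0.0012), and 1.17 for *Atf5* (0.0099), and the difference from cytokines with NMMA by 1.80 for *Ddit3* (0.00014). Between β-cells and macrophages, the log2 change with cytokines was higher in β-cells by 2.39 for *Ddit3* (6.6e-09) and by 2.78 for *Atf3* (6.0e-13). Untreated *Atf3* had a mean of 1.86 CPM in β-cells and 180 CPM in macrophages, and its gain in CPM was larger in macrophages. All 9 differences passed after the insulin-scaled β-cell counts had been subtracted from the other class.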

How the results depend on the processing

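The counts of members called were recomputed under each alternative, and 306 of these stayed within 1.5 times the main count while 55 did not. No member that passed in the main setting changed sign. Among single members, 3196 values kept their side of the threshold, 98 newly passed, and 100 no longer passed.

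The replicate block, which pairs libraries of 1 islet pool, moved the count from 0 to 4 for NMMA alone in β-cells, from 3 to 7 in α-cells for cytokines against cytokines with NMMA, and from 0 to 1 in macrophages in both comparisons. Genes called among all genes moved with it, from 0 to 438 of 12767 in β-cells, from 1030 to 1901 of 9671 in α-cells, and from 245 to 471 and from 2 to 38 of 5616 in macrophages. The other calls of members that it changed in the comparisons described stand beside their values above. Without the low-count filter the counts were 4 (main 2) for cytokines against cytokines with NMMA and 2 (0) for NMMA alone in β-cells, 5 (3) in α-cells, 1 (0) in macrophages in both comparisons, 2 (1) and 4 (2) for β-cells minus α-cells with cytokines and with NMMA added, and 2 (1) for the *Nos2* division with cytokines and NMMA. Without that filter, edgeR called *Ddit4* higher in β-cells with cytokines (adjusted p = 2.2e-05), and *Ddit4* (9.7e-06) and *Atf5* (0.0014) with cytokines and NMMA. Between cytokines with and without NMMA, *Atf3* (0.59, 0.030) and *Chac1* (−0.61, 0.0058) then passed in β-cells and *Atf3* (1.02, 0.013) in α-cells. With NMMA alone *Chac1* (0.69, 0.021) and *Trib3* (0.89, 0.00028) did in β-cells. The mitochondrial limit of 5% left 1 (2) in β-cells for cytokines against cytokines with NMMA. In δ-cells the cytokine count was 1 (3) after subtraction and 0 (3) in DESeq2, and 1 (0) against cytokines with NMMA without the minimum of cells. β-cells minus δ-cells with cytokines had 1 (0) after subtraction and 1 (0) when clustered without the members, and β-cells minus α-cells 2 (1) when so clustered. The depth of 5000 UMIs gave 0 (1) for the *Nos2* division with cytokines and NMMA and 4 (2) for the *Hspa1a* division with NMMA. The cause of these moves was not tested.

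Leaving out each library in turn gave 6 to 8 (main 7) for cytokines in β-cells, 1 to 3 (2) against cytokines with NMMA, and 3 to 8 (7) for cytokines with NMMA. It gave 6 to 9 (9) and 3 to 5 (3) in α-cells, 0 to 4 (3) in δ-cells, 0 to 1 (0) in macrophages, and 1 to 4 (4) in endothelial cells for cytokines. Between classes it gave 1 to 2 (1) and 1 to 4 (2) for α-cells, 0 to 1 (0) for δ-cells, 2 to 3 (2) for macrophages, and 1 to 3 (3) for endothelial cells. For the *Nos2* division it gave 0 to 1 (0) and 1 to 2 (1), and for the *Hspa1a* division 2 to 6 (6) untreated, 0 to 4 (3) with cytokines, 0 to 4 (3) with both, and 1 to 4 (2) with NMMA. The hormone rule for δ-cells and δ-cells without cytokine replicate 2 left no cytokine library.

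Total-UMI scaling raised the members called in the *Hspa1a* division with cytokines from 3 to 6, and the splits it changed stand beside those results. Depth limits *Trib3* and *Chac1* outside β-cells, where some libraries of each class held 3 UMIs or fewer of them. It also limits *Atf3* in the *Hspa1a* division of β-cells without cytokines, with 3 to 13 UMIs per library and side. Every replicate was a pool of islets, so p-values of fits without a block cover the spread between 2 pools, with their pairing left out. The replicate block takes out what the libraries of a pool share, including their Cell Ranger version and limit on genes. Differences between classes and the *Nos2* and *Hspa1a* divisions had library as a block, which takes out what both sums of a library share.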
